A study of Mus musculus with 3 samples.

Results

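Feedback genes of the MAP kinase pathway were read in bulk RNA sequencing of 3 mouse melanoma cell lines, YUMM1.1, YUMM2.1 and YUMM1.7. The genes were chosen by symbol as 3 dual-specificity phosphatases (Dusp4, Dusp5, Dusp6), 4 inhibitors of receptor signaling (Spry1, Spry2, Spry4, Spred1) and 3 ETS transcription factors (Etv1, Etv4, Etv5). All 10 symbols were found, each once, among 25791 in the table, and all 10 were among the 11741 with at least 1 FPKM in at least 1 line. Values are in FPKM, which divides the fragments of a gene by transcript length and by sequencing depth. With 1 library of total RNA for each line, the spread between cultures is not known and no p-value is given.

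YUMM lines were derived from tumors of mice engineered to form melanoma, and the series concerns PD-1 blockade in mice that carry such tumors as transplants. The labels name the line only and give no genotype, passage or treatment. In general descriptions of these lines, all 3 carry an activated Braf allele among other engineered alleles. YUMM1.1 and YUMM1.7 lack Cdkn2a, and YUMM2.1 has heterozygous Cdkn2a loss and a stabilized beta-catenin allele. In the table, Cdkn2a was listed at 0 in YUMM2.1, against 8.41 FPKM for YUMM1.1 and 5.84 for YUMM1.7. These levels run in the reverse direction to the described alleles. Gene-level values do not show whether exons are deleted, and the labels do not settle the genotype. Each value belongs to 1 cell line, so allele, line and library cannot be told apart.

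Background on the pathway is brief. RAS, RAF and MEK kinases pass growth factor signals to the kinase ERK, and mutant Braf drives this chain without a growth factor. Active ERK switches on genes whose products hold it back. Dusp phosphatases remove the activating phosphates from MAP kinases, Sprouty and Spred proteins restrain the steps from receptor to RAF, and the Etv factors of the PEA3 group are targets that in turn drive transcription. In melanoma with mutant Braf these genes are often read as gauges of ERK output.

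The lines were checked against melanocyte markers. Sox10, a factor of the melanocyte lineage, had 107 FPKM in YUMM1.1, 44.3 in YUMM2.1 and 0.00821 in YUMM1.7. Of 8 melanocyte markers in the table, 2 reached 1 FPKM in YUMM1.1, 4 in YUMM2.1 and 1 in YUMM1.7. Their summed FPKM was 258, 83.8 and 4.29 in that order of lines. Nearly all of the YUMM1.1 sum came from Sox10 and S100b, the latter with 149.6, 31.8 and 3.38 FPKM by line. Other markers did not follow this order. Mitf was lowest in YUMM1.1 (0.188, 1.23 and 0.617) and Mlana highest in YUMM2.1 (0.159, 6.18 and 0). Tyr reached at most 0.279 FPKM in any line and Dct at most 0.0318. Tyrp1 was listed at 0 in YUMM1.1, and Dct, Tyrp1 and Mlana were in YUMM1.7. Ednrb was listed at 0 in YUMM1.1 and YUMM2.1. Of 7 fibroblast markers, 0, 2 and 5 reached 1 FPKM in YUMM1.1, YUMM2.1 and YUMM1.7, with sums of 0.722, 3.94 and 157 FPKM. Lum was listed at 0 in YUMM1.1 and YUMM1.7, and Thy1 in YUMM1.1. Leukocyte markers summed to 5.42, 33.2 and 1.40 FPKM over 6 genes, and 1, 3 and 0 of them reached 1 FPKM. The pan-leukocyte gene Ptprc was listed at 0 for YUMM1.1 and YUMM1.7 and at 0.00217 FPKM for YUMM2.1. Endothelial and epithelial markers summed to at most 0.193 FPKM in each line. In a bulk library, fewer cells of a type and less RNA per cell cannot be told apart. The part of these marker differences in the values below was not tested.

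Depth was read from the spacing of the lowest values, which implied about 68.7, 87.7 and 46.4 M scaled fragments in YUMM1.1, YUMM2.1 and YUMM1.7. At that depth about 93 fragments lay behind the lowest member value (Spry1 in YUMM1.7) and about 23924 behind the best covered (Spred1 in YUMM2.1). The intervals given below are 95% exact Poisson intervals of these approximate fragment numbers, and they cover counting error only.

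The 10 genes did not order the lines in 1 way. For every one of the 10, YUMM2.1 exceeded YUMM1.1, by 1.06-fold for Etv4 up to 3.79-fold for Dusp5. Of all 11741 expressed genes, 45.7% did so. Set against each of the other lines, YUMM1.7 had more Dusp5, Spry4 and Etv4 RNA and less Dusp4, Dusp6, Spry1, Spry2 and Spred1 RNA. As deposited, Etv1 and Etv5 varied by no more than 1.37-fold. With each line rescaled to a common sum of FPKM, Spry4 was instead higher in YUMM2.1 (10.4) than in YUMM1.7 (8.59). Dusp5 and Etv4 kept their place, Etv4 narrowly. This rescaling lowers YUMM1.7 against both other lines, so the genes that were lower there could only stay lower.

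**Figure D1:**
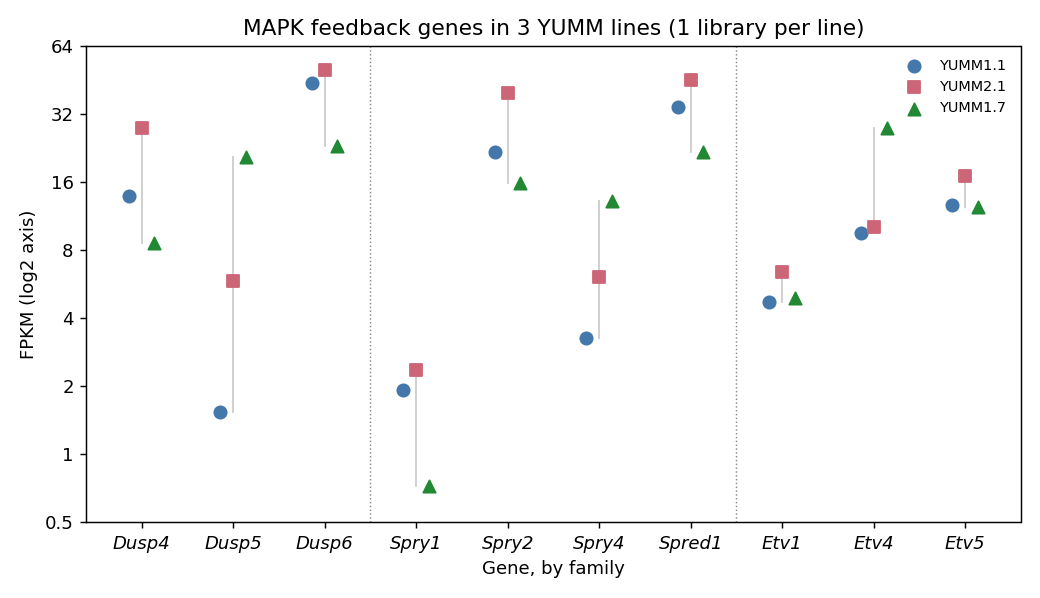
FPKM of each gene on a log2 axis in YUMM1.1 (blue circles), YUMM2.1 (red squares) and YUMM1.7 (green triangles), 1 library per line, grouped as phosphatases, Sprouty and Spred genes, and Etv factors; grey lines span the 3 values. The square lies above the circle for all 10 genes, while the triangle is the top value for Dusp5, Spry4 and Etv4 and the bottom value for Dusp4, Dusp6, Spry1, Spry2, Spred1 and Etv5.

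Dusp5 encodes a nuclear phosphatase that acts on ERK, and it varied most of the 10. Its FPKM was 1.53 in YUMM1.1 (95% counting interval 1.35 to 1.73), 5.81 in YUMM2.1 (5.50 to 6.14) and 20.7 in YUMM1.7 (19.9 to 21.6). The 3 intervals do not overlap, and YUMM1.7 was 13.5-fold above YUMM1.1 and 3.56-fold above YUMM2.1. Under the common sum YUMM1.7 (13.5) and YUMM2.1 (9.96) lay closer, and the log2(FPKM + 1) difference of YUMM2.1 minus YUMM1.7 moved from -1.67 to -0.40. On the log2(FPKM + 1) scale the difference between YUMM1.7 and YUMM1.1 was 3.10, and it ranged from 1.98 to 3.67 over the alternatives tried. A change of filter cannot alter the value of a gene that stays, so only the other alternatives bear on this range. Among the 11741 genes at 1 FPKM or more in any line, Dusp5 ranked at percentile 16.9 in YUMM1.1, 43.3 in YUMM2.1 and 72.3 in YUMM1.7.

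The other phosphatases ran the other way in YUMM1.7. Dusp4 encodes a nuclear phosphatase of ERK and other MAP kinases, and its FPKM was 13.9 in YUMM1.1, 27.8 in YUMM2.1 and 8.56 in YUMM1.7. YUMM2.1 held 2.01-fold more Dusp4 RNA than YUMM1.1 and 3.25-fold more than YUMM1.7. Dusp6 encodes the cytoplasmic phosphatase that is selective for ERK. Its FPKM was 44.0 in YUMM1.1 and 49.9 in YUMM2.1, the highest of the 10 there, and 23.2 in YUMM1.7, where Etv4 exceeded it. YUMM1.1 and YUMM2.1 were close in Dusp6, 1.13-fold apart, and YUMM1.7 was 2.15-fold below YUMM2.1 and 1.90-fold below YUMM1.1.

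Ratios inside a library do not depend on how libraries are scaled. Per molecule length, Dusp5 was 0.0348 of Dusp6 in YUMM1.1, 0.116 in YUMM2.1 and 0.893 in YUMM1.7. The ratio of Dusp5 to Dusp4 was 0.111, 0.209 and 2.42 in the same order. Dusp5 thus made up 2.58% of the summed FPKM of the 3 phosphatases in YUMM1.1, 6.96% in YUMM2.1 and 39.5% in YUMM1.7, while Dusp6 made up 74.1%, 59.8% and 44.2%. The sums themselves were 59.4, 83.6 and 52.5 FPKM.

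The stretch before the start site is shown for Dusp5 and Dusp6, the phosphatase genes with an entry in the RefSeq promoter table, of which the first was highest and the second lowest in YUMM1.7 (build GRCm38.p6, which need not be the authors' build). The Dusp5 window is chr19:53528895-53529144 and the Dusp6 window chr10:99262981-99263230, both on the plus strand, the 250 bases upstream of the start. Capitals mark matches to the motifs searched apart from the CRE core and the TCF motif, and the only such matches were adjoining CArG boxes, the element bound by serum response factor, in Dusp5.
Dusp5: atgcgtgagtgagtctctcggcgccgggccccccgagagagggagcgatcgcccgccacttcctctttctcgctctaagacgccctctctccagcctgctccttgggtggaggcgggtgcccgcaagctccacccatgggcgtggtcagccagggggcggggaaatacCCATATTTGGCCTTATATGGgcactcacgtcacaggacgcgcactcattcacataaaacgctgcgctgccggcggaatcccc
Dusp6: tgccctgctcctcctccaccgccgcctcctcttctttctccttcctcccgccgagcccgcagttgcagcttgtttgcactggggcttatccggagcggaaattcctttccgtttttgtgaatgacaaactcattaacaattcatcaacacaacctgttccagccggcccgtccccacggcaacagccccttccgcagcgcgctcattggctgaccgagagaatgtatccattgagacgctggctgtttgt

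The CArG boxes of Dusp5 spanned bases -82 to -73 and -72 to -63 before the start, so they touch without overlap. Such a box on either strand was found in 1.47% of 32851 windows of the same length. Of the 10 feedback genes, 7 had a window in the table (9 windows in all, since Etv1 and Etv5 had a pair each), and Dusp5 was the only gene of the 7 with a match. Other motifs were searched on both strands. The core TGACG of the cyclic AMP response element (CRE) was in the Dusp5 window and in 17.8% of all windows, and the TCF/LEF motif CTTTGA was in an Etv1 window and in 13.8% of all. None of the 9 windows held CCGGAA, a form of the ETS site, which 12.0% of all windows held, or the AP-1 site TGANTCA, which 6.75% held. The same was true of the full CRE, TGACGTCA, found in 1.55% of all windows and containing the core by construction. It also held for the octamers TGAATGAA (1.08% of all windows) and TGAATGGA (1.01%), which the repressor CIC binds. Other forms of the ETS and CIC sites were not searched, so neither kind of site is excluded in the 9 windows. A match describes letters only.

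Sprouty genes encode inhibitors that uncouple growth factor receptors from RAS and RAF. Spry2 stood at 21.6 FPKM in YUMM1.1, 39.7 in YUMM2.1 and 15.8 in YUMM1.7. YUMM2.1 was 1.84-fold above YUMM1.1 and 2.51-fold above YUMM1.7. Spry1 was the least abundant of the 10 in YUMM2.1 and YUMM1.7 and stood at 1.92, 2.37 and 0.720 FPKM in YUMM1.1, YUMM2.1 and YUMM1.7, with counting intervals of 1.73 to 2.13, 2.18 to 2.57 and 0.581 to 0.882. Spred1 encodes an inhibitor that recruits the RAS GTPase activator neurofibromin to the membrane, and it stood at 34.4, 45.4 and 21.7 FPKM. For these 3 genes YUMM2.1 was the highest line and YUMM1.7 the lowest as deposited. YUMM2.1 had the largest scaling factor in all 3 other scalings of the libraries, so it could not lose its place. YUMM1.7 had the smallest under the common sum and the common upper quartile. Its place could therefore change only under the median ratio, where it did not.

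Spry4 differed from its relatives. Its FPKM was 3.27 in YUMM1.1, 6.09 in YUMM2.1 and 13.2 in YUMM1.7. YUMM1.7 was 4.04-fold above YUMM1.1, a difference of 1.74 on the log2(FPKM + 1) scale. That difference stayed between 1.02 and 1.98 under the alternatives other than the filters, which cannot change it. Against YUMM2.1, YUMM1.7 was 2.17-fold higher as deposited. The log2(FPKM + 1) difference of YUMM2.1 minus YUMM1.7 was -1.004 as deposited but 0.25 after rescaling to a common sum. Within a library, Spry4 was 0.151 of Spry2 in YUMM1.1, 0.153 in YUMM2.1 and 0.837 in YUMM1.7, so this ratio was nearly equal in the first pair of lines. Spry4 made up 5.35%, 6.52% and 25.7% of the summed FPKM of the 4 Sprouty and Spred members, and Spred1 made up 56.2%, 48.5% and 42.2%.

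Etv factors bind ETS sites and are induced by growth factor and ERK signaling. Etv4 stood at 9.53 FPKM in YUMM1.1 (counting interval 9.07 to 10.02), 10.1 in YUMM2.1 (9.65 to 10.5) and 27.8 in YUMM1.7 (26.9 to 28.8). YUMM1.1 and YUMM2.1 overlapped in counting error, and YUMM1.7 was 2.92-fold and 2.76-fold above them. Under the common sum, YUMM1.7 (18.1) and YUMM2.1 (17.3) lay close together in Etv4, above YUMM1.1 (10.9), and the log2(FPKM + 1) difference of YUMM1.7 and YUMM1.1 was 0.69 there.

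Etv5 stood at 12.6, 17.0 and 12.4 FPKM in YUMM1.1, YUMM2.1 and YUMM1.7, and Etv1 at 4.69, 6.40 and 4.91. For each of these genes YUMM1.1 and YUMM1.7 overlapped in counting error (12.2 to 13.1 and 11.9 to 12.9 for Etv5, 4.49 to 4.90 and 4.66 to 5.16 for Etv1), and YUMM2.1 lay above them. Under the common sum these genes spread further, to 14.4, 29.1 and 8.06 for Etv5 and 5.35, 11.0 and 3.19 for Etv1. The ratio of Etv4 to Etv5 was 0.754 in YUMM1.1, 0.593 in YUMM2.1 and 2.24 in YUMM1.7. Etv4 made up 35.5%, 30.1% and 61.7% of the summed FPKM of the 3 Etv members. The leading Etv gene was therefore Etv5 in YUMM1.1 and YUMM2.1 and Etv4 in YUMM1.7.

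**Figure D2:**
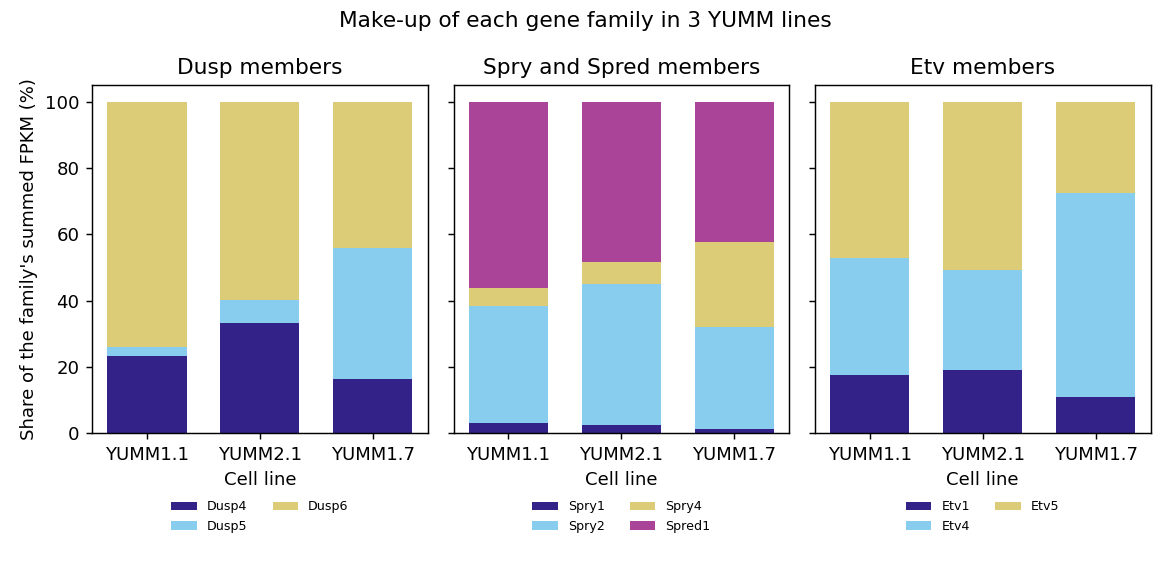
Share (percent) of each family's summed FPKM held by each member in the 3 lines, as stacked bars from 0 to 100, 1 library per line. In YUMM1.7 the shares of Dusp5 (39.5%), Spry4 (25.7%) and Etv4 (61.7%) are each larger than in YUMM1.1 and YUMM2.1, a pattern that does not depend on the scaling between libraries.

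Genes were counted in the comparisons below from a difference of 1 in log2(FPKM + 1), which is 2-fold on that scale. They share libraries with each other, so their values are given side by side and are not independent. Between YUMM2.1 and YUMM1.1, 1 of 10 members was at least 2-fold higher (Dusp5, difference 1.43) and 0 were at least 2-fold lower. Among all expressed genes 6.21% were higher and 7.64% lower by that rule, so the count is near the background. Dusp4 lay just inside the limit at 0.96, followed by Spry2 at 0.85 and Spry4 at 0.73. The remaining 6 lay between 0.07 (Etv4) and 0.40 (Etv5).

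The median of the 10 differences between YUMM2.1 and YUMM1.1 was 0.40, against -0.05 over all expressed genes. All 10 were above 0 under every scaling, pseudocount and length setting tried. So were the 9 left by a filter at 5 FPKM, which drops Spry1. Most of these settings could not have given another result. Neither a pseudocount nor a filter can change the sign of a difference. Every rescaling gave YUMM2.1 a larger factor than YUMM1.1, so a member higher there had to stay higher. Centring each difference on the median of its class of transcript length could lower only members in classes with a median above 0. Their differences became 0.19 (Spred1), 0.18 (Etv1), 0.71 (Spry4) and 0.38 (Etv5). The share of all genes above 0 ranged from 35.5% without a filter to 76.0% under the common sum. That scaling moved the median of all genes to 0.43, and the 10 members were each above it too.

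YUMM1.7 against YUMM1.1 gave 3 of 10 members at least 2-fold higher and 0 lower, where 13.5% of all expressed genes were higher and 9.91% lower. The 3 were Dusp5 (3.10), Spry4 (1.74) and Etv4 (1.45). Counting differences of any size, 4 members were higher, where 50.9% of all genes were. Dusp5 was also the 1 member past a 4-fold difference, which 3.95% of all genes passed upward. On the lower side Dusp6 was nearest to the limit at -0.90, followed by Spry1 (-0.76), Spred1 (-0.64), Dusp4 (-0.63) and Spry2 (-0.43). The member median was -0.23 and that of all genes 0.02.

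Between YUMM2.1 and YUMM1.7 most members differed, in both directions. Of the 10, 4 were at least 2-fold higher in YUMM2.1 (Dusp4 1.59, Spry2 1.28, Dusp6 1.07 and Spred1 1.03), where 11.7% of all expressed genes were. Another 3 were at least 2-fold lower (Dusp5 -1.67, Etv4 -1.38 and Spry4 -1.004), where 19.5% of all genes were. Spry1 lay just inside the limit at 0.97. Of any size, 7 members were higher in YUMM2.1, where 49.1% of all genes were. The member median was 0.70 and that of all genes -0.02, and under the common sum these became 1.76 and 1.12. That setting left 7 members higher and 0 lower, where 54.7% of all genes were higher and 4.48% lower.

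**Figure D3:**
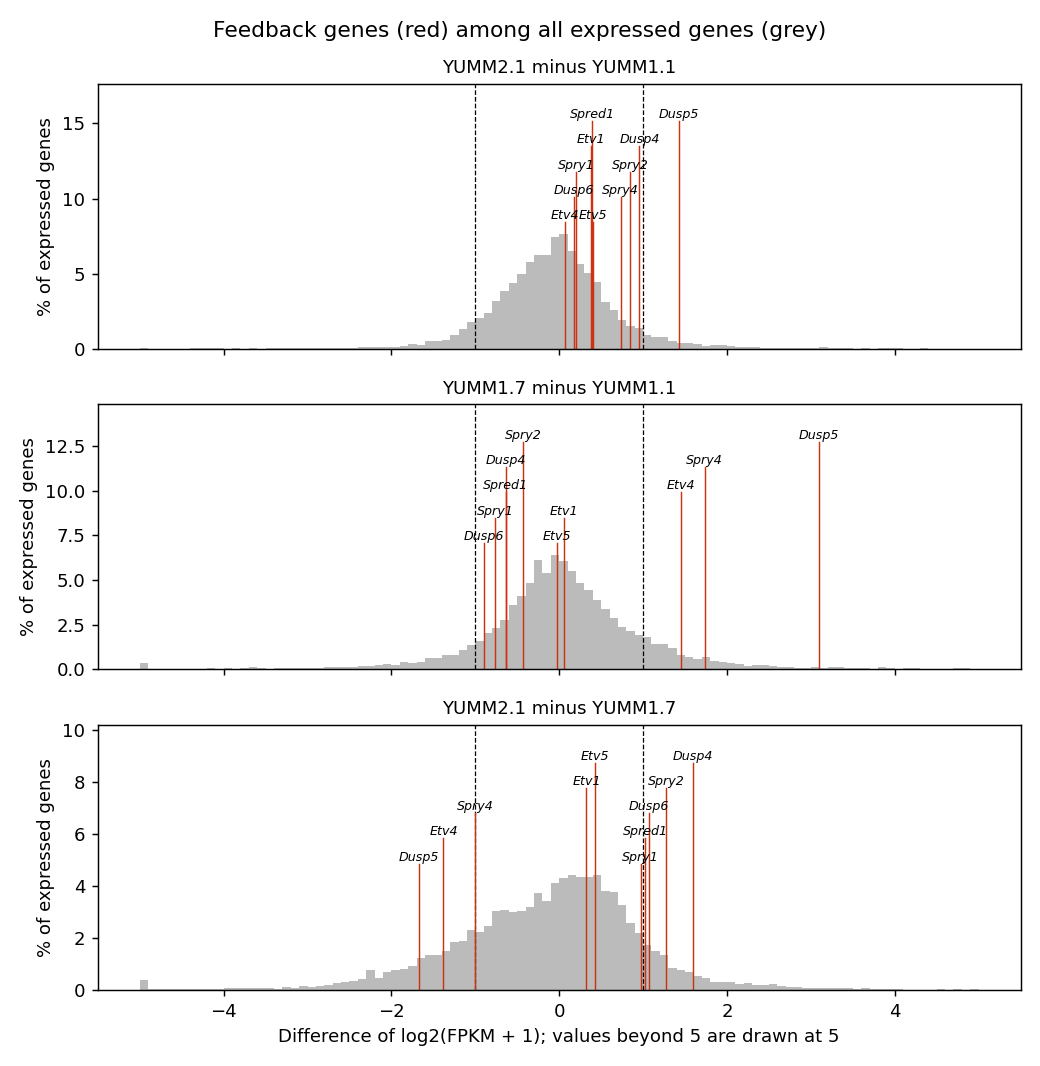
Histograms of the difference of log2(FPKM + 1) over 11741 expressed genes (grey, percent of genes per bin) for each pair of lines, with each feedback gene as a red line whose height only separates labels; dashed lines mark a 2-fold difference. All 10 lines lie to the right of 0 in the top panel, Dusp5, Spry4 and Etv4 stand past the 2-fold limit in the middle panel, and the bottom panel holds 4 members past the limit on the right and 3 on the left.

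Transcript length moved with the difference between libraries. Between YUMM2.1 and YUMM1.7 the median difference was -0.86 in the shortest of 5 classes of transcript length and 0.40 in the longest. Spred1 and Etv1 fell in the longest class, Spry4 and Etv5 in the next, Dusp4, Dusp6 and Spry1 in the middle one, and Dusp5, Spry2 and Etv4 in the second shortest. Centred on the median of its class, the difference of Spred1 was 0.63 in place of 1.03 and that of Dusp5 was -1.45 in place of -1.67.

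What the 10 genes share beyond the rule was limited. They lie on 10 different chromosomes, so none neighbors another. In the GENCODE vM21 annotation their median 3' UTR was 1150 nt, close to the 1165 nt of 10683 expressed genes. The AU-rich heptamer TATTTAT, a letter pattern found in the 3' UTRs of many short-lived transcripts, occurred in 6 of 10 members and in 30.8% of expressed genes. It was present in all 4 Sprouty and Spred genes, in Etv1 and in Etv5, and was absent from the 3 Dusp genes and Etv4. A longer 3' UTR has more room for a match, and these shares are not matched for length. Spry4, Spred1, Etv1 and Etv5 had 3' UTRs of 3559, 4330, 4715 and 2161 nt, and Spry1 and Spry2 of 1047 and 856. The genes without the heptamer had 619 (Etv4) to 1189 nt (Dusp6). The pentamer ATTTA occurred at least 2 times in 7 of 10 members and in 51.3% of expressed genes, with a median of 1.94 and 1.35 per kb.

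For Dusp5, the 1 member whose range over the lines exceeded 2 in log2(FPKM + 1), the nearest profiles were sought among 9959 other expressed protein-coding genes. The nearest were Sp100, a nuclear body protein gene (0.0143, 1.71 and 7.54 FPKM in YUMM1.1, YUMM2.1 and YUMM1.7), the immediate early response gene Ier5 (2.15, 7.06 and 25.8) and Chn1 (0.482, 3.41 and 13.2). Their distances over the 3 centred values were 0.0187, 0.0533 and 0.124, and 31 genes lay within 0.5. Likeness over 3 points is a description of these libraries.

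Other parts of the pathway were read from lists of related genes. Only genes at 1 FPKM or more in at least 1 line were counted, so some entered only through the line where they were high. Examples are Pdgfra, Dusp9 and Elf4 in YUMM1.7 and Pdgfb in YUMM2.1. Growth factor ligands came first. Of 8 expressed ligands, 1 was at least 2-fold higher in YUMM2.1 than in YUMM1.1 and 0 were lower. Of all genes, 6.21% were higher and 7.64% lower. Set against YUMM1.1, YUMM1.7 had 2 ligands higher and 4 lower, where 13.5% of all genes were higher and 9.91% lower. YUMM2.1 had 4 ligands higher and 3 lower than YUMM1.7, where 11.7% and 19.5% of all genes were. Between YUMM2.1 and YUMM1.1 the common sum gave 3 ligands higher and 0 lower, where 17.8% and 2.82% of all genes were. Pdgfb stood at 0.0305, 8.37 and 0.0376 FPKM in YUMM1.1, YUMM2.1 and YUMM1.7. Pdgfa, which encodes the partner chain of platelet-derived growth factor, stood at 149, 185 and 25.6 FPKM, and Fgf2, a fibroblast growth factor gene, at 5.18, 7.54 and 0.414. Each of these 3 genes was highest in YUMM2.1.

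Of the 9 lists, receptors had the highest median for YUMM1.7 against YUMM1.1, at 1.88 (1.24 under the common sum). It covers the 7 expressed genes of 12 listed. Of these 7, 4 were higher and 1 lower, where 13.5% and 9.91% of all genes were. The PDGF receptor genes Pdgfrb (0.0107, 1.88 and 13.0 FPKM) and Pdgfra (0.202, 0.170 and 13.9) were highest in YUMM1.7, and the neuregulin receptor gene Erbb3 (49.7, 9.50 and 0.0324) was highest in YUMM1.1. Fgfr1 and Met were the other 2 that were higher. Pdgfra and Pdgfrb are also in the fibroblast marker list.

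Few genes of the kinase chain passed 2-fold as deposited. Of 13 RAS, RAF, MEK and ERK core genes in the table, 0 were past 2-fold between YUMM2.1 and YUMM1.1. Of all genes, 6.21% were higher and 7.64% lower. Set against YUMM1.1, YUMM1.7 had 0 higher and 1 lower, where 13.5% and 9.91% of all genes were. For YUMM2.1 against YUMM1.7, Ksr1 was higher and Mapk3 lower, where 11.7% and 19.5% of all genes were. The gene lower in YUMM1.7 was Ksr1, a scaffold of RAF, MEK and ERK, at 5.15, 6.25 and 0.755 FPKM in YUMM1.1, YUMM2.1 and YUMM1.7. Mapk3, which encodes ERK1, stood at 64.5, 36.6 and 84.6 FPKM, and Braf at 1.14, 2.19 and 1.09. Under the common sum 6 of the 13 were at least 2-fold lower in YUMM1.7 than in YUMM1.1, where 28.1% of all genes were, and 11 of the 13 were higher in YUMM2.1 against YUMM1.7, where 54.7% were.

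The remaining phosphatases of the MAP kinase family numbered 7, all expressed, and none differed 2-fold between YUMM2.1 and YUMM1.1. All genes had 6.21% higher and 7.64% lower in that comparison. In YUMM1.7 against YUMM1.1, 2 were higher and 0 lower as deposited, and 0 were higher and 2 lower under the common sum. All expressed genes had 13.5% higher and 9.91% lower as deposited, and 5.84% higher and 28.1% lower under the common sum. Dusp2 stood at 0.807, 0.671 and 4.18 FPKM in YUMM1.1, YUMM2.1 and YUMM1.7, the immediate early phosphatase gene Dusp1 at 2.27, 1.004 and 3.62, and Dusp9 at 0.00558, 0.0481 and 1.26. Of the other Sprouty and Spred genes, Spred2 stood at 10.2, 12.4 and 8.58 FPKM and Spred3 at 5.14, 8.18 and 7.35, and Spry3 was listed at 0 in all 3 lines.

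Further ERK output genes also differed in both directions in YUMM1.7. Of 12 expressed, YUMM1.7 against YUMM1.1 had 5 higher (Egr1, Egr3, Ier2, Errfi1 and Plaur) and 3 lower (Ccnd1, Ier3 and Hbegf), with a median of 0.73 beside 0.02 over all genes. Of all genes, 13.5% were higher and 9.91% lower. Under the common sum the counts were 3 and 4, where 5.84% and 28.1% of all genes were higher and lower. The median there was -0.02, beside -0.62 over all genes. Errfi1, which encodes a feedback inhibitor of the EGF receptor family, stood at 6.59, 7.81 and 62.5 FPKM in YUMM1.1, YUMM2.1 and YUMM1.7. The immediate early genes Ier2 (1.69, 6.51 and 19.9 FPKM) and Egr3 (0.264, 2.01 and 5.62) had the same order of lines as Dusp5. Between YUMM2.1 and YUMM1.1, 3 of the 12 were higher (Egr1, Egr3 and Ier2) and 1 lower (Fosl1), with a median of 0.02. All genes had 6.21% higher and 7.64% lower, with a median of -0.05. The genes named here for a small count were picked after their values were seen.

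**Figure D4:**
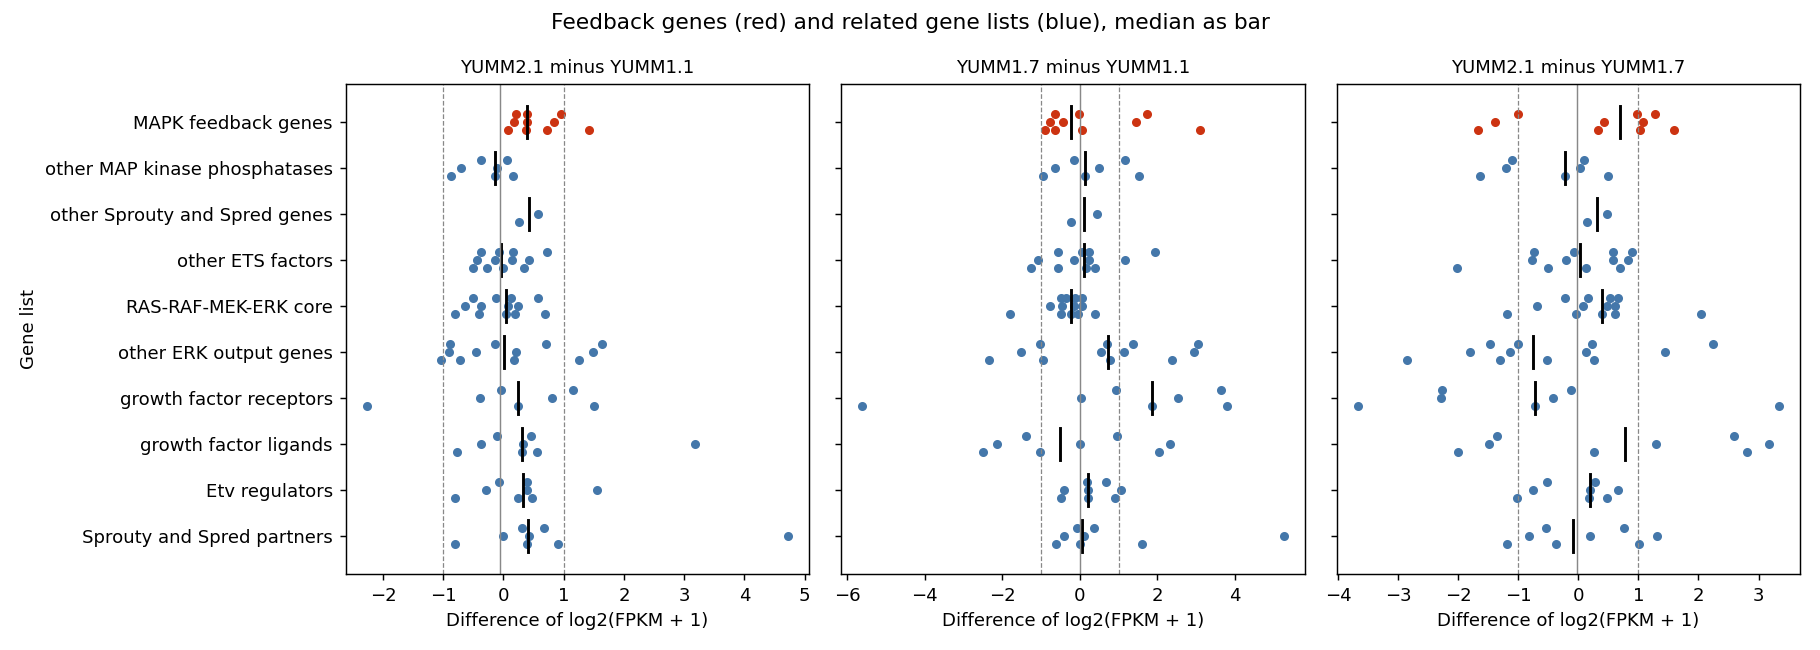
Difference of log2(FPKM + 1) for each expressed gene of the feedback set (red) and of 9 related lists (blue), by pair of lines; black bars are list medians, the grey line is the median of all expressed genes and dashed lines mark 2-fold. In the middle panel the feedback genes fall in separate groups with Dusp5, Spry4 and Etv4 to the right, the receptors have a median of 1.88, and the core genes lie within 2-fold apart from Ksr1.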

How the data were processed

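Total RNA of 3 cell lines, extracted with a Qiagen AllPrep kit per the labels' protocols, was sequenced as 1 Illumina library per line. Per the submitters' processing notes, TopHat2 2.0.9, Cufflinks and Cuffnorm were used. The authors deposited FPKM per gene symbol, with 0 repeated symbols. What each tool did, the genome build, gene models, strand setting and library scaling are not stated in those notes.

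Values were read as log2(FPKM + 1) for symbols at 1 FPKM or more in at least 1 line. A difference of 1 was counted, and no test was run. This scale understates changes of low genes. The value of 1 fragment was read as the spacing of FPKM times kb up to 8 fragments in single-transcript genes of at least 3000 nt, where 83.2%, 81.4% and 75.0% of low values lay within 0.2 of a whole multiple in YUMM1.1, YUMM2.1 and YUMM1.7. The depth and the counts were checked on simulated data. Transcript lengths came from GENCODE vM21 (95.3% of expressed symbols), whose transcripts need not be the authors', so fragment numbers are approximate.

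The members and gene lists were chosen with earlier results of these data known. Named genes were all members, the 3 genes of widest range in each list, every gene of a list of 4 or fewer, the nearest profiles of a member with a range of 2 or more, and Braf and Cdkn2a. A few others it selects are left out of the text. Alternatives were pseudocounts of 0.1 and 5, no filter, a filter at 5 FPKM, 3 other scalings and centring on 5 length classes. Python 3.11.15, numpy 2.4.6, pandas 2.3.3, scipy 1.17.1 and matplotlib 3.10.9 were used.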

Additional observations from a re-analysis of the deposited data

How the results depend on the processing

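Counts of members past 2-fold depended on the setting, since several members lay near the limit. For YUMM2.1 against YUMM1.1 the count of higher members was 1 as reported, 2 with a pseudocount of 0.1, 0 with a pseudocount of 5, 4 under the common sum, 3 under the common upper quartile and 2 when centred on length class. Of all genes, 6.21%, 10.3%, 1.81%, 17.8%, 8.42% and 6.71% were higher under these settings in turn. For YUMM1.7 against YUMM1.1 the count of lower members was 0 as reported, 1 with a pseudocount of 0.1 and 5 under the common sum. Of all genes, 9.91%, 13.8% and 28.1% were lower under these settings in turn. For YUMM2.1 against YUMM1.7 the common sum gave 7 higher and 0 lower, where 54.7% and 4.48% of all genes were. A pseudocount of 5 gave 2 higher, where 4.43% of all genes were. The member median for YUMM2.1 against YUMM1.1 was 0.97 under the common sum. For YUMM1.7 against YUMM1.1 it was -0.94 under the common sum and -0.0246 with a filter at 5 FPKM. For YUMM2.1 against YUMM1.7 it was 1.76 under the common sum, 0.35 with a pseudocount of 5, 0.42 with the filter at 5 FPKM, and 0.42 when centred on length class. The common sum also moved the median of all genes, to 0.43, -0.62 and 1.12 in the 3 comparisons, and the upper quartile moved it to 0.17 in the last. The filter at 5 FPKM left 9 members. Of the called differences, Spry4 between YUMM2.1 and YUMM1.7 reversed, to 0.25 under the common sum, and it fell short of 2-fold with a pseudocount of 5 (-0.72), under the upper quartile (-0.80) and under the median ratio (-0.97). The common sum also took Dusp5 (-0.40) and Etv4 (-0.06) between these lines, and Etv4 (0.69) between YUMM1.7 and YUMM1.1, below 2-fold. A pseudocount of 5 did so for Dusp6 (0.96) and Spred1 (0.91) between YUMM2.1 and YUMM1.7 and for Dusp5 (0.73) between YUMM2.1 and YUMM1.1, and centring on length class for Spred1 (0.63). The cause was not tested. With 1 library per line, no replicate could be left out, and the spread between cultures is not known.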

Other observations

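Among genes that act on the Etv factors, the pseudokinase gene Trib2 was at least 2-fold higher in YUMM2.1 (8.93 FPKM) and YUMM1.7 (6.11) than in YUMM1.1 (2.38). It was the 1 of 8 listed regulators past 2-fold in each of these comparisons. All genes had 6.21% higher and 7.64% lower for YUMM2.1, and 13.5% and 9.91% for YUMM1.7. Under the common sum, YUMM1.7 against YUMM1.1 instead gave 0 of the 8 higher and 2 lower. Of all genes, 5.84% were higher and 28.1% lower there. Trib1, whose product brings substrates to the COP1 ubiquitin ligase, stood at 9.47 FPKM in YUMM1.1, 4.99 in YUMM2.1 and 11.1 in YUMM1.7, and Trib3 at 2.34, 3.37 and 5.24. Cic, which encodes a repressor of Etv genes that ERK inactivates, stood at 13.0, 18.4 and 15.0 FPKM. Among 12 other expressed ETS factors, 0 were past 2-fold between YUMM2.1 and YUMM1.1, where 6.21% of all genes were higher and 7.64% lower. In YUMM1.7 against YUMM1.1, 2 were higher and 2 lower, where 13.5% and 9.91% of all genes were. The common sum gave 1 higher and 4 lower, where 5.84% and 28.1% of all genes were. Elf4 stood at 0.205, 0.140 and 3.62 FPKM in YUMM1.1, YUMM2.1 and YUMM1.7, Ets2 at 2.59, 3.80 and 7.03, and Ets1 at 17.4, 12.6 and 6.69.

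Partners of the Sprouty and Spred proteins also differed between the lines. Cav1, which encodes the membrane scaffold caveolin-1, stood at 0.0366 FPKM in YUMM1.1, 26.5 in YUMM2.1 and 39.0 in YUMM1.7. Rasa1, a RAS GTPase activator gene, stood at 5.23, 7.34 and 17.9 FPKM, and Dyrk1a at 6.29, 12.6 and 4.50. Nf1, which encodes the neurofibromin that Spred1 recruits, stood at 5.05, 6.98 and 2.96 FPKM and was picked after its values were seen. Its order of the lines was that of Spred1.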
